A study of Arabidopsis thaliana with 10 samples.

Results

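A set of 142 of 22746 probe sets had a lower level in rosettes of the abi4-102 mutant of Arabidopsis thaliana and a level near that of the wild type in the vtc1 mutant. A probe set is a group of short probes on an array that measures transcripts of 1 gene or, in some cases, of several. A gene can have more than 1 probe set. The set was chosen by its own values on the scale of log2(intensity + 1): the mean of abi4-102 lay at least 0.6 below that of the wild type, the mean of vtc1 lay within 0.3 of it, and every abi4-102 array lay below every other array. Because those values chose the set, its levels in the 3 genotypes are a description and no test supports them. The wild type was Col 0 (3 arrays), abi4-102 is labelled aba insensitive 4 (3 arrays) and vtc1 is labelled vitamin C defective 1 (4 arrays). Whole rosettes of 42-day-old plants, grown on compost under 8 h of light a day, were used in all groups. The titles call the arrays biological replicates, but it is not stated if each came from 1 plant or several, so errors and p-values cover only the spread between these samples. Each mutant was a single line.

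ABI4 is an AP2-type transcription factor known for its part in the response to abscisic acid, in sugar signalling in seedlings, and in signals from the chloroplast to the nucleus. VTC1 makes GDP-mannose, a precursor of ascorbate, and vtc1 plants are known for low ascorbate. The transcripts of ABI4 and VTC1 were not analysed here, so the genotypes were not checked through them. The tissue label was checked through marker genes. All 5 measured leaf mesophyll markers lay far above control level (the brightest of the probe sets for Bacillus transcripts) in each genotype. Of 3 measured root markers PYK10 was at control level in wild type and abi4-102, and EXPA18 in abi4-102 but not on every wild-type array. EXPA7 was at control level in neither genotype, with means of 27.7 in wild type and 20.7 in abi4-102. Flower markers were not analysed here. Median intensity was 42.6 to 45.6 on the 10 arrays.

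Of the 142 probe sets, 76 (53.5%) were unnamed in the annotation, against 38.4% of all probe sets, and 66 carried 1 gene each, 66 different genes in all. The genes comprised 65 protein-coding genes and 1 annotated pseudogene, AT4G16870. Only 12 had a symbol other than the locus code, and a thirteenth, AT5G24740, is listed under the synonym SHRUBBY. Most differences were modest. Only 5 probe sets were lower by 1 or more on the log2 scale, which is 2-fold, and 101 were lower by less than 0.75. The median log2 difference between abi4-102 and wild type was -0.69, against -0.01 over all probe sets, so that the median probe set of the set was at 62.0% of the wild-type level. All 142 were called lower by limma at an adjusted p under 0.05, where 34.9% of all probe sets were called, 16% lower and 18.8% higher, and all 142 were called higher in vtc1 than in abi4-102, where 17.8% of all probe sets were. Every abi4-102 array lay below every other array at 9.04% of all probe sets and below every wild-type array at 20.6%, and this criterion removed no probe set that met the other conditions. The rule used these contrasts, so nothing is read from the counts.

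**Figure D1:**
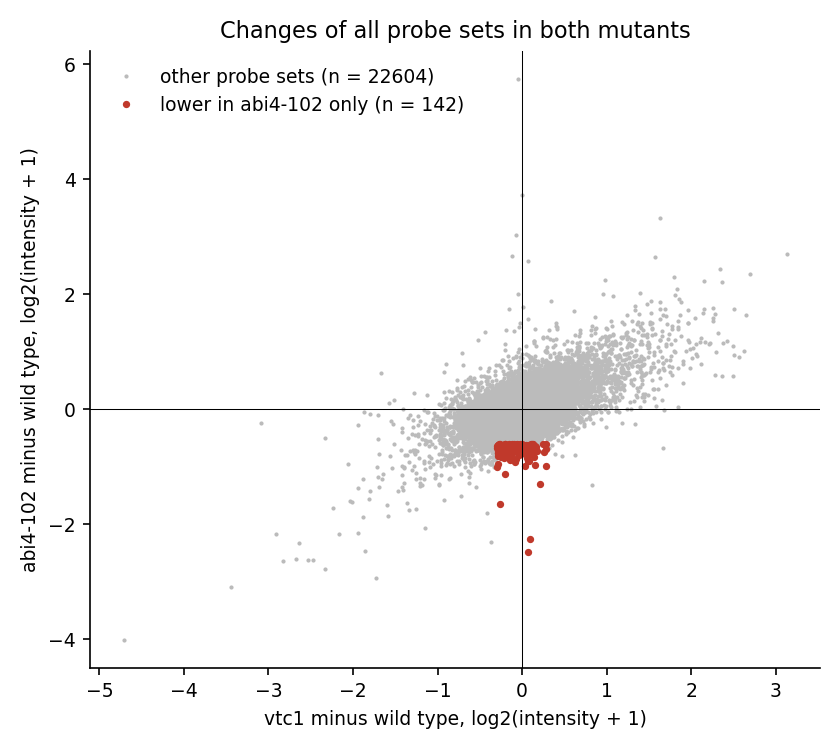
Difference from wild type in vtc1 (x axis) and abi4-102 (y axis) for every probe set, both on the log2(intensity + 1) scale, as group means of 3 wild type, 3 abi4-102 and 4 vtc1 arrays. The 142 probe sets of the set (red) lie from -0.60 to -2.48 on the y axis, within 0.3 of zero on the x axis, while other probe sets (grey) reach the same depth outside that window. Both axes share the wild type arrays.

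The set was evenly low on the 3 abi4-102 arrays. The median deviation of its probe sets from the wild-type mean was -0.68, -0.71 and -0.73 on abi4-102 replicates 1, 2 and 3, and lay between -0.02 and 0.02 on the wild-type arrays. On vtc1 arrays it was -0.10, -0.09, -0.16 and -0.11. The spread between abi4-102 arrays (median SD 0.122 on the log2 scale) was wider than over all probe sets (0.0883), whereas that of wild type (0.081) and vtc1 (0.08) was near the general level (0.08 and 0.078). Between the highest abi4-102 array and the lowest other array the median gap was 0.392, with a lowest gap of 0.004. The set was brighter than the array at large, with a median wild-type intensity of 117 against 43.2 over all probe sets. All arrays of abi4-102 lay at or below control level for 9 of the 142 (6.34%), against 31.3% of all probe sets. The rule itself favours bright probe sets, because differences of dim ones are understated on the log2 scale used. Neither the brightness nor the share at control level is therefore read as a trait of the set. Control level is the highest of 27 Bacillus control probe sets, which stood at an intensity of 15.2 to 19.8.

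Within the permitted window, the set leaned to the lower side in vtc1. Of the 142 probe sets 100 lay below wild type in vtc1 and 42 above, with a median of -0.12. Of these, 38 (26.8%) were called lower in vtc1 and 5 higher, where 36.6% of all probe sets were called, 18.5% lower and 18.1% higher. The 38 became 25 without vtc1 replicate 3 or without wild type replicate 1, and 63 after subtraction of array medians. Under scaling on the spike-in probe sets, which moves the median of all probe sets in vtc1 to 0.21, none of the 142 was called lower in vtc1 and 42 were called higher. Both mutants are compared with the same 3 wild-type arrays, and the rule limited the vtc1 change, so the balance below and above wild type is given only as a value.

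The largest difference belonged to an unnamed probe set, 257144_at. It read 315, 336 and 305 in wild-type rosettes, 71.5, 42.6 and 58.4 in the abi4-102 replicates and 356, 322, 326 and 334 in vtc1, which made it 5.58-fold lower in abi4-102. This and all folds below are ratios of means on the log2(intensity + 1) scale. The abi4-102 arrays lay far below all others, and those of vtc1 overlapped wild type. Another unnamed probe set, 247717_at, was the brightest among the 5 largest differences. It read 1669, 1673 and 1628 across wild type, 539, 536 and 512 across abi4-102 and 1502, 1307, 1392 and 1351 across vtc1, and was 3.13-fold lower in abi4-102. Its vtc1 arrays lay below all wild-type arrays but well above those of abi4-102. Of the 5 probe sets lower by 1 or more, 4 were unnamed.

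The named exception was AT5G50310, a protein-coding gene with no symbol. It read 78.2, 68 and 69.2 on the wild-type arrays, then 18.1, 10.3 and 15.2 on those of abi4-102 and 72.8, 81.1, 71.4 and 80.6 in vtc1. The abi4-102 arrays were all at or below control level, so the change was at least 3.78-fold, with measured means of 71.8 ± 5.56 (SD, n = 3) and 14.5 ± 3.93 (n = 3). The next named genes were AT4G08310 (1.99-fold lower) and the pseudogene AT4G16870 (1.98-fold), at 100 ± 8.87 against 49.5 ± 1.9 and 53.8 ± 2.78 against 26.6 ± 1.36. They differed in vtc1, where AT4G08310 lay at the lower edge of the window (-0.29) and AT4G16870 at the upper edge (0.29). AT1G22060 and AT5G58120 were each 1.88-fold lower in abi4-102, AT2G26920 1.8-fold, AT1G48090 1.79-fold and AT5G08570 1.72-fold. No gene among these has a symbol in the tables used here, so no function is given.

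Primary carbon metabolism held the brightest named genes of the set. PRK encodes phosphoribulokinase, the enzyme that regenerates the carbon dioxide acceptor of the Calvin cycle. It read 4171, 4201 and 4066 in wild-type rosettes, 2865, 2381 and 2572 in the abi4-102 replicates and 3508, 3786, 3443 and 3522 in vtc1. No vtc1 array reached a wild-type array, and PRK lay 1.6-fold below wild type in abi4-102 and 0.22 below it on the log2 scale in vtc1. HPR encodes the hydroxypyruvate reductase of peroxisomes, which makes glycerate in photorespiration. It read 3285, 3350 and 3385 across wild type, 2060, 1975 and 2055 across abi4-102 and 2861, 2655, 2643 and 2824 across vtc1. HPR was intermediate in vtc1 as well, with a log2 difference from wild type of -0.28 there and of -0.72 ± 0.061 (SE) in abi4-102. Under spike-in scaling the vtc1 difference was 0.02 for PRK and -0.05 for HPR, neither called.

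Among genes of sugar and starch metabolism the vtc1 arrays overlapped those of wild type. ATSPS4F encodes a sucrose phosphate synthase, which catalyses a committed step of sucrose synthesis. It read 163, 168 and 161 on the wild-type arrays, 85.5, 105 and 92.2 on those of abi4-102 and 180, 147, 166 and 151 in vtc1. The log2 difference from wild type was -0.80 in abi4-102 and -0.04 in vtc1. A phosphoglucan water dikinase is an enzyme that phosphorylates glucan chains such as those of starch. PWD (AT4G24450) is annotated as one but is also listed as both ATGWD2 and GWD3, so its name does not settle which enzyme it is. Its values were 65.8, 62 and 67.3 in wild-type rosettes, 43.5, 36.6 and 44.8 in the abi4-102 replicates and 55.6, 68.6, 58.6 and 54.6 in vtc1. SWEETIE, a gene named for a mutant with altered sugar metabolism, read 73.5, 75.7 and 65.6 across wild type, 49.1, 45.9 and 41.3 across abi4-102 and 65.5, 73.8, 71.2 and 74.2 across vtc1. In abi4-102 PWD was 1.55-fold and SWEETIE 1.56-fold below wild type.

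Of the 3 named genes that act on chromatin or flowering time, 2 were dim. CHR23 encodes a chromatin remodelling ATPase of the SNF2 type. It read 27, 22.2 and 26.7 on the wild-type arrays, 14.6, 13.1 and 12.7 on those of abi4-102 and 19.9, 22.7, 22.5 and 29.1 in vtc1. The abi4-102 arrays were at control level, so the change was at least 1.36-fold. LD, or LUMINIDEPENDENS, is a homeodomain protein of the autonomous flowering pathway. Its values were 34.3, 35.9 and 30 in wild-type rosettes, 19.7, 16.8 and 22.2 in the abi4-102 replicates and 31.9, 29.6, 25.5 and 31.3 in vtc1, where 1 array lay near the abi4-102 range. DME, or DEMETER, is a DNA glycosylase that removes methylated cytosine and is best known for its action in the female gametophyte. It read 66.1, 58.8 and 78.6 across wild type, 41.3, 49.4 and 35.6 across abi4-102 and 70.4, 57.8, 71 and 73.6 across vtc1. The lowest vtc1 array stood 0.221 above the highest abi4-102 array on the log2 scale, among the narrower gaps of the set. The vtc1 difference of DME from wild type was 0.01. Under spike-in scaling it was 0.25 and was called higher (limma adjusted p = 0.036). That scaling moves the median of all probe sets in vtc1 to 0.21, so no rise of DME is read from the call.

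IQD24 and IQD31 are IQ-domain proteins, a plant family that binds calmodulin. IQD24 read 131, 116 and 112 on the wild-type arrays, 78.3, 63.5 and 61.6 on those of abi4-102 and 104, 120, 104 and 105 in vtc1. IQD31 read 121, 128 and 132 in wild-type rosettes, 86.4, 78.2 and 80.3 in the abi4-102 replicates and 123, 114, 123 and 119 in vtc1. IQD24 was 1.76-fold and IQD31 1.55-fold below wild type in abi4-102, and in vtc1 neither was called (-0.14 and -0.08 on the log2 scale, and 0.09 and 0.16 under spike-in scaling).

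Genes with names from stress or defence were LCR68 and pEARLI4. LCR68, also called PDF2.3, is a small cysteine-rich protein of the plant defensin family. It read 862, 868 and 888 across wild type, 515, 558 and 551 across abi4-102 and 912, 889, 852 and 853 across vtc1. Its vtc1 arrays spanned those of wild type, with a log2 difference of 0.01, and its abi4-102 arrays lay 1.61-fold below. Under spike-in scaling the vtc1 difference of LCR68 was 0.24 and was called higher (limma adjusted p = 0.04). This is near the 0.21 of the median probe set under that scaling, so no rise of LCR68 is read from it. pEARLI4, named after an aluminium-induced transcript, read 227, 184 and 236 on the wild-type arrays, 129, 116 and 122 on those of abi4-102 and 166, 191, 173 and 173 in vtc1. It lay near the limit of the window, with -0.29 in vtc1. AT5G24740, the SHRUBBY gene, named for the short root of its mutant, read 49.1, 51.6 and 44.4 in wild-type rosettes, 21.9, 30.4 and 32.4 in the abi4-102 replicates and 49.9, 52.7, 43.8 and 44.9 in vtc1. Replicate 1 was the lowest of its abi4-102 arrays, and vtc1 overlapped wild type.

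**Figure D2:**
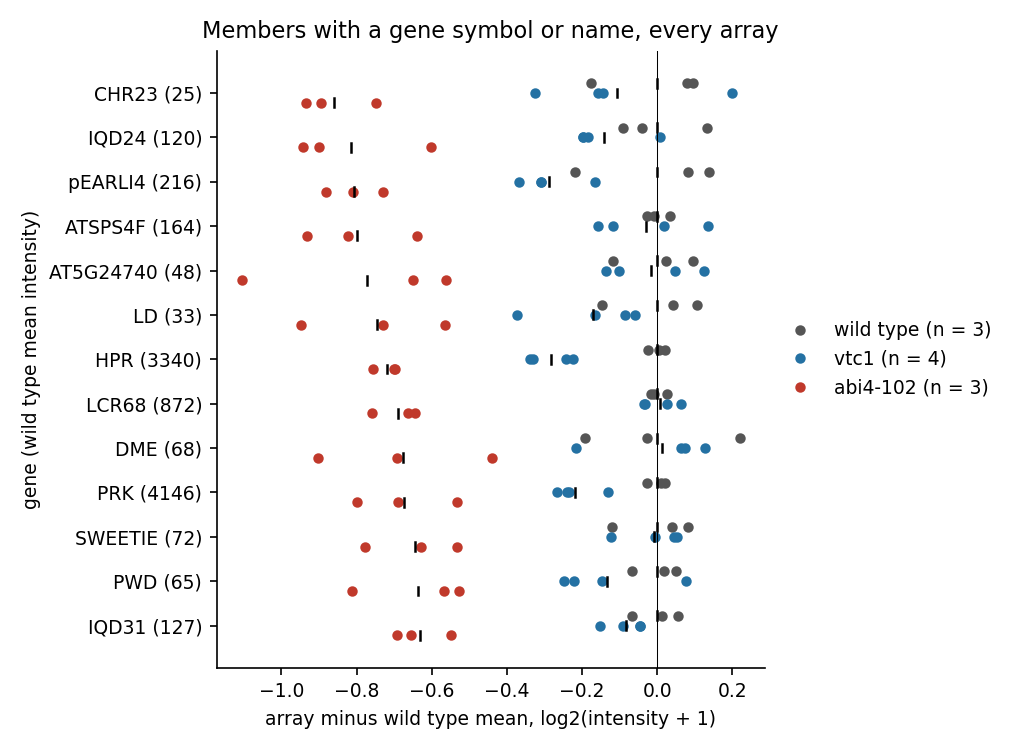
Each point is 1 array of 1 gene, as its difference from the wild-type mean on the log2(intensity + 1) scale (x axis), for the 13 members with a symbol or a name other than the locus code (y axis, wild-type mean intensity in parentheses); short bars are group means. Every abi4-102 array (red, n = 3) lies left of all wild type (grey, n = 3) and vtc1 (blue, n = 4) arrays, as the rule required, and PRK and HPR have vtc1 arrays between the other genotypes.

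The genes of the set were long. The median gene length in the TAIR10.1 gene table, from start to end with introns, was 3920 bp for the 66 genes, against 2117 bp for the 13436 probe sets of 1 gene matched to the table. Genes over 4000 bp made up 33 of 66 genes of the set and 12.1% of all those probe sets, and genes over 8000 bp made up 15.2% (10 of 66) and 1.02%. The 5 longest were AT1G48090 (26499 bp), AT5G24740 (20157 bp), SWEETIE (16684 bp), AT4G39420 (16023 bp) and AT3G50380 (14343 bp). AT1G48090 read 195, 198 and 184 across wild type, 116, 108 and 98.4 across abi4-102 and 212, 216, 209 and 210 across vtc1, so that its vtc1 arrays all lay above those of wild type. Only 3 of the 66 genes were 2000 bp or shorter, among them LCR68 with 810 bp.

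Other sets cut by similar limits from the same arrays held shorter genes. Probe sets lower in vtc1 only, chosen by the same limits with the mutants exchanged, had a median gene length of 1528 bp (144 probe sets with a length), and those higher in abi4-102 only 1659 bp (103 probe sets). Those lower by 0.6 or more in both mutants, with all mutant arrays below all wild-type arrays, had 2443 bp (98 probe sets). Genes over 4000 bp made up 1.39%, 5.83% and 15.3% of these sets in the same order. These lengths are a description with no test, and the 76 unnamed probe sets have no length. With the dimmest 25% of probe sets left out, all 142 remained, and the share over 4000 bp among all probe sets of 1 gene was 13.1%. The share in the set was lower when it was chosen again with a pseudocount of 16, at 32.1% of 28 probe sets with a length.

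**Figure D3:**
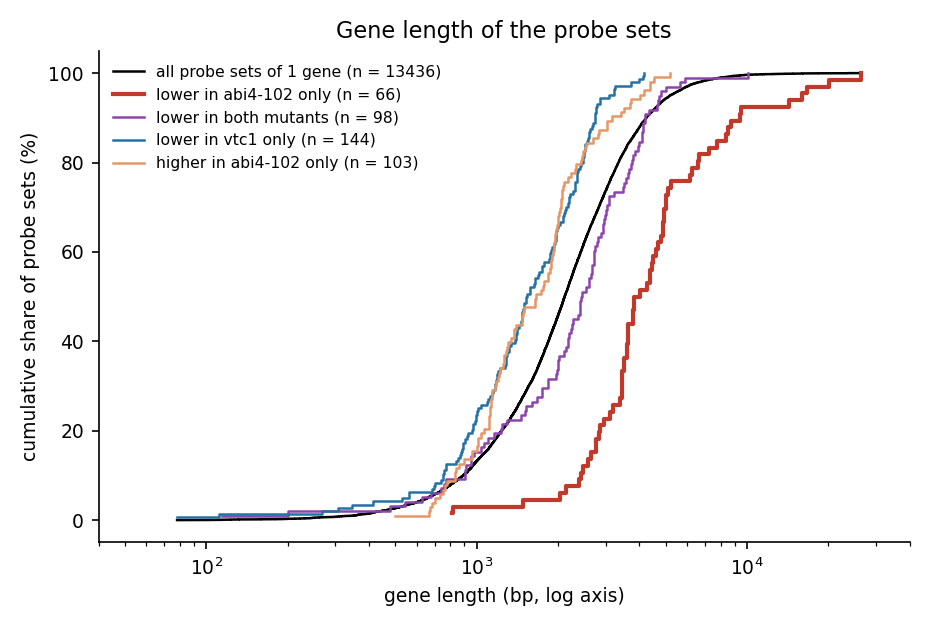
Cumulative share of probe sets (y axis, %) by gene length (x axis, bp, log axis) for all probe sets of 1 gene (black) and 4 sets cut from the arrays. The curve of the set lower in abi4-102 only (red, n = 66) lies to the right, with a median of 3920 bp against 2117 bp for all.

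Gene length went with the change in abi4-102 beyond the set. Over all probe sets of 1 gene, the share called lower in abi4-102 was 7.0% for genes up to 1000 bp, 14.2% from 2000 to 3000 bp, 28.7% from 4000 to 6000 bp and 60.8% over 10000 bp. In vtc1 the corresponding shares were 17.9%, 18.3%, 12.4% and 9.8%. The median log2 change in abi4-102 went from 0.03 for genes of 1000 to 2000 bp to -0.29 for those over 10000 bp, where it was 0.01 in vtc1. These shares and medians include the members, which the rule chose as lower in abi4-102. Members were 17 of the 1222 probe sets from 4000 to 6000 bp and 5 of the 51 over 10000 bp. With the 142 probe sets left out, the median deviation of 389 probe sets of genes over 6000 bp minus that of 6134 of genes up to 2000 bp was -0.21, -0.20 and -0.24 on the abi4-102 arrays. It was -0.02, 0.00 and 0.03 on the wild-type arrays and 0.13, 0.13, 0.12 and 0.11 on the vtc1 arrays. The 3 genotypes did not overlap in this measure, and vtc1 lay on the other side of wild type from abi4-102.

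**Figure D4:**
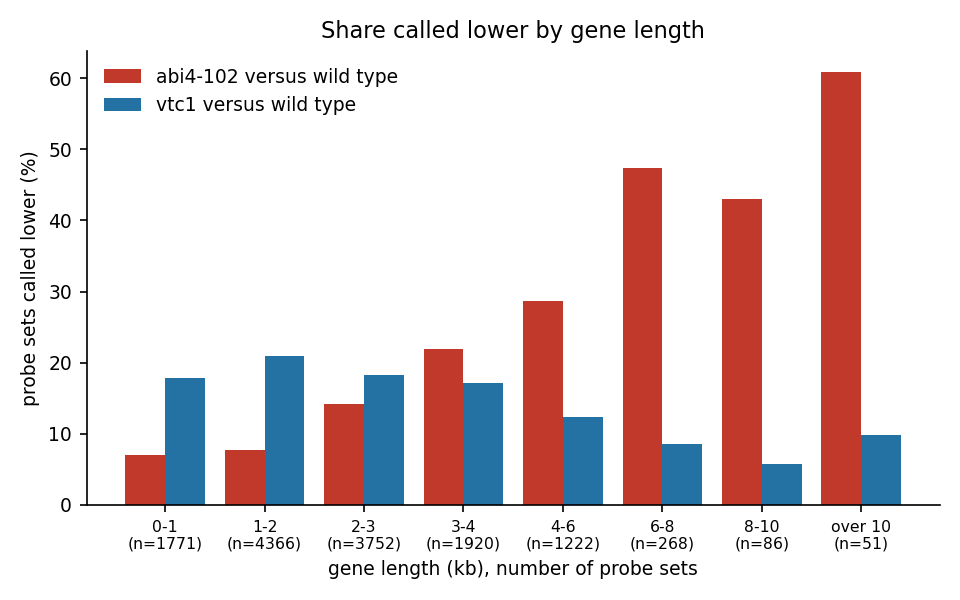
Share of probe sets called lower by limma (y axis, %) in abi4-102 (red) and vtc1 (blue) against wild type, by gene length (x axis, kb, with the number of probe sets). The share in abi4-102 is 7.0% in the shortest genes and 60.8% in the longest, and in vtc1 it is 17.9% and 9.8%. Members of the set are included, and the rule chose them as lower in abi4-102.

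**Figure D5:**
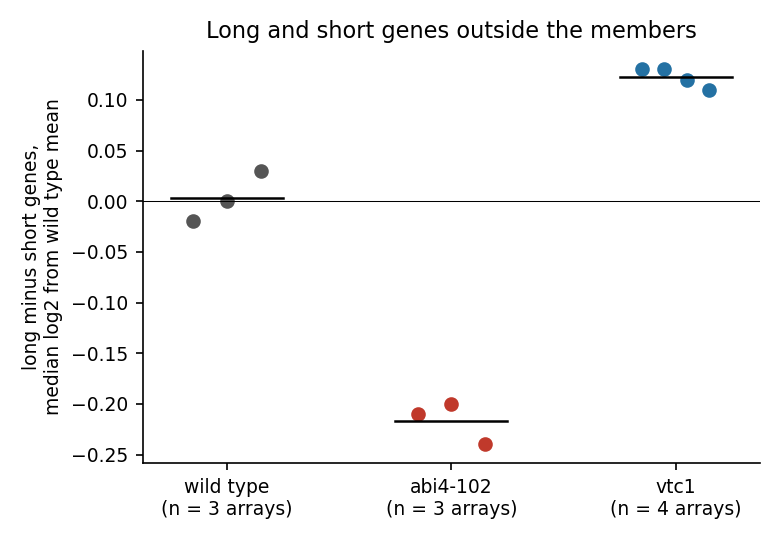
Median log2 deviation from the wild-type mean of 389 probe sets of genes over 6000 bp minus that of 6134 probe sets of genes up to 2000 bp (y axis), members left out, per array; bars are group means. The abi4-102 arrays lie from -0.24 to -0.20, wild type from -0.02 to 0.03 and vtc1 from 0.11 to 0.13.

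Of 2 measures of RNA integrity, 1 set wild type apart from the mutants. The actin control's 3' minus 5' difference was 1.69 to 2.1 on the log2 scale on the wild-type arrays, 1.36 to 1.56 on those of abi4-102 and 1.49 to 1.67 in vtc1, so that both mutants lay below wild type and overlapped each other. That of GAPDH overlapped, at 0.33 to 0.49, 0.14 to 0.53 and 0.14 to 0.38. Their part in the lengths was not tested.

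DME, AT4G39420 and AT1G01320 had more than 1 probe set, and these did not all differ alike. DME had 3 probe sets. Besides the one in the set (-0.68), 250834_at had a log2 difference of -0.59 in abi4-102 (41.8 ± 3.04 against 27.5 ± 2.92), just short of the limit, and 250835_at -0.29 (30.5 ± 0.923 against 24.7 ± 1.85). In vtc1 those probe sets differed from wild type in opposite directions, by -0.26 and 0.18. AT4G39420 had a bright probe set in the set (-0.64, at 138 ± 4.28 in wild type) and 3 dim ones with differences of -0.10, -0.02 and -0.09, of which the brightest read 20.8 ± 2.25. AT1G01320 had 1 in the set (-0.77, at 381 ± 32.3) and a dim one with -0.16 (22.6 ± 1.88). The dim probe sets of AT4G39420 and AT1G01320 lay near or below control level, which limits what they can show.

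The genes of the set were spread over the 5 chromosomes, with 18, 7, 10, 13 and 18 genes on chromosomes 1 to 5. Chromosome 2 held 10.6% of the set against 16.4% of all probe sets of 1 gene, and chromosome 5 held 27.3% against 22.4%. No pair of the 66 genes lay within 5 genes of each other in the table's order, and none was plastid-encoded.

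Lists of pathways that fit the named members were few in measured genes, with 27 of 121 listed genes measured in 7 lists. Over these, 12 were called lower in abi4-102 and 4 higher, against 16% and 18.8% of all probe sets. The lists were chosen with earlier results of these arrays known, and PRK, HPR and ATSPS4F belong to the set. The photorespiration list had 3 of 11 genes measured, all called lower in abi4-102 and in vtc1. Besides HPR these were AT1G80380, at 933 ± 53.8 in wild type and 708 ± 43.1 in abi4-102 (1.32-fold, limma adjusted p = 0.00046), and AT1G11860, at 2266 ± 50.5 and 1769 ± 121 (1.28-fold, limma adjusted p = 0.002). Neither gene met the limits of the set, in abi4-102 (-0.40 and -0.36) or in vtc1 (-0.45 each). In vtc1 all of these calls were lost under spike-in scaling, with log2 changes of -0.05 for HPR, -0.22 for AT1G80380 and -0.21 for AT1G11860. In the Calvin cycle list 3 of 21 genes were measured, and beside PRK both RCA (Rubisco activase) and SBPASE (sedoheptulose bisphosphatase) were called lower in both mutants. Under spike-in scaling neither PRK (0.02) nor RCA (0.07) was lower in vtc1, and SBPASE stayed called there (-0.28). SBPASE was lower by 0.51 in vtc1 and by 0.28 in abi4-102, the reverse order of PRK, and its call in abi4-102 was lost under spike-in scaling (log2 change -0.25). The median log2 change of the Calvin cycle list was -0.36 in abi4-102 and -0.22 in vtc1, and that of photorespiration -0.40 and -0.45, against -0.01 and -0.03 over all probe sets.

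In the sucrose and starch list 2 of 5 measured genes were called lower in abi4-102, ATSPS4F and SBE2.2, a starch branching enzyme. SBE2.2 showed the same form of change as the set but a smaller one, at 493 ± 15.3 in wild-type rosettes, 349 ± 37.1 in the abi4-102 replicates and 475 ± 20.9 in vtc1, a log2 difference of -0.50 and -0.05. AT2G35840, DPE1 and APL3 were not called (log2 changes 0.00, -0.14 and 0.14), although DPE1 was under quantile normalization (-0.21) and with a pseudocount of 16 (-0.14). Of 3 genes of light harvesting and the photosystems, LHCB4.1, LHCB4.2 and PSAE-1, none was called in abi4-102 (-0.03, 0.10 and -0.09). In the abscisic acid list 2 of 4 measured genes were called lower in abi4-102, LEA4-5 (-0.44) and COR47 (-0.28, not called under spike-in scaling, at -0.24). COR15A (0.15) and COR15B (-0.03) were not called there. COR47 was lower by more in vtc1 (-1.04), and none of the 4 genes met the limits of the set. GI, a clock gene, came near them, with -0.58 in abi4-102 and -0.25 in vtc1 (509 ± 26, 341 ± 18.6 and 428 ± 16.8 in wild type, abi4-102 and vtc1), and COR27 of the same list was not called in abi4-102 (0.11). In the cell wall list 1 of 7 measured genes was called lower, CSLA01, and 4 higher, of which 2 were at or below control level in both genotypes, and the median log2 change was 0.19. CSLA01 was lower in both mutants, with log2 changes of -2.32 in abi4-102 and -2.63 in vtc1.

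Markers of other cell types also differed in abi4-102. The 2 measured guard cell markers summed to 211.6 to 224.5 across wild type, 287.3 to 337.8 across abi4-102 and 167.4 to 180.6 across vtc1, and the higher sum in abi4-102 came from AT1G22690 alone (170 ± 7.81 against 269 ± 23.5, called higher). The other marker, FMA, was not called (48.4 ± 1.33 against 45.8 ± 2.25, log2 change -0.08). The only measured phloem marker of 5 listed, AT5G18600, stood at 1048 to 1088, 1386 to 1515 and 884.7 to 969.1, and 1 gene cannot stand for a cell type. The 5 leaf mesophyll markers summed to 30176 to 30668 in wild type, 26159 to 27787 in abi4-102 and 27401 to 28294 in vtc1. Of these, PRK, RCA and SBPASE were called lower in abi4-102, PRK being a member of the set, while neither LHCB4.1 (-0.03) nor LHCB4.2 (0.10) passed. Among root markers EXPA7 was called lower in abi4-102 (-0.41) and also in vtc1 (-0.34, not called under spike-in scaling, at -0.1), and PYK10 was at control level. Fewer cells of a type and less RNA per cell cannot be told apart in whole rosettes, and the part of cell types in the levels of the set was not tested.

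The limit of 0.6 cut through a continuous range. Just inside it were AT5G55100 (-0.604), AT1G50660 (-0.605) and AT4G36980 (-0.606), and just outside, with all other conditions met, AT1G56290 (-0.596), AT1G03910 (-0.595) and AT2G20330 (-0.592). AT1G50660, for example, read 87.8, 88.4 and 98.8 on the wild-type arrays, 59.1, 60.3 and 60 on those of abi4-102 and 94.4, 97.6, 86.7 and 88.6 in vtc1. AT2G20330 read 93.9, 96 and 98.9, then 60.5, 64.1 and 66, and 92.9, 82.4, 97.5 and 85.6 in the same order. In both genes every abi4-102 array lay far below the rest, so the genes on either side of the limit looked alike.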

How the data were processed

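Each of the 10 single-colour arrays has 1 deposited column of probe-set intensity on a linear scale, measured from biotin-labelled cRNA per the labels. The authors' probe summary and array scaling are not stated in the material used, and how they move dim values is unknown. Of 22810 probe sets 64 controls were set aside. From the deposited values, log2(intensity + 1) was taken with no further normalization, which understates differences of dim probe sets. A single limma model (limma 3.58.1, R 4.3.3) held all 10 arrays with genotype as factor. Benjamini-Hochberg adjustment ran over 22746 probe sets, with calls at adjusted p under 0.05. It was tested on simulated data. "At least N-fold" sets wild type against control level. Python 3.11.15, pandas 2.3.3 and matplotlib 3.10.9 made tables and plots.

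Names came from the platform annotation, updated through the TAIR10.1 gene table: 13513 probe sets carried 1 gene, 503 several and 8730 none, and 13436 matched the table. Members and gene lists were chosen with earlier results of these data known. Named were, among members of 1 gene, the 12 largest decreases, those with a symbol or a described function, those nearest the limit (3 on either side), those with other probe sets, list members, and up to 4 other genes per list. AT3G50380 and the 2 unnamed probe sets were picked after their values were seen, as was the comparison of gene length. Alternatives covered pseudocount, scaling, a filter on dim probe sets, limits of the rule, a replicate block and each array left out. A planned promoter search was not run.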

Additional observations from a re-analysis of the deposited data

Results flagged for a closer look

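Among 26 named members of the set, each checked over the 4 vtc1 arrays, 3 had an array whose gap to the nearest other exceeded Dixon's limit, and chance flags about 1 in 20. IQD24 read 120 on vtc1 replicate 2 against 104 to 105 on the other vtc1 arrays. AT4G36980 read 154 on vtc1 replicate 2 against 129 to 130. AT1G01320 read 355 on vtc1 replicate 4 against 381 to 383.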

How the results depend on the processing

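The size of the set followed its limits: 301 probe sets met a decrease of 0.5 or more, 41 one of 0.75 and 5 one of 1, and 74 met a vtc1 change within 0.15. With a pseudocount of 16 there were 71, of which 64 were among the 142. Scaling changed the membership more than the number, with 170 probe sets under spike-in scaling, of which 87 were among the 142, and 169 and 129 under quantile normalization. Leaving out 1 array gave 138 to 171 probe sets. All 142 stayed called lower in abi4-102 under each of the 16 alternatives run, among them the replicate block. The rule chose them by this contrast on the same arrays, so nothing is read from these calls. Arrays of the same replicate number did not deviate together (correlations of deviations from the group means -0.0547 to 0.1). With the replicate block, the count of probe sets called in abi4-102 versus wild type was 7611 in place of 7928, no call of a named gene in abi4-102 changed, and 28 of the 142 were called lower in vtc1 in place of 38. The share of genes over 4000 bp, computed again after seeing the data, was 32.1% with a pseudocount of 16 and 38.4% to 55.8% under the other settings. Over all probe sets of 1 gene it was 12.1% to 13.1%. Among the pathway lists 10 to 13 genes were called lower and 3 to 4 higher. SBPASE, COR47 and the DME probe set 250835_at were not called under spike-in scaling, and AT1G01320's dim probe set was called without abi4-102 replicate 2. The EXPA9 call was lost without wild type replicate 1 (log2 change 0.22) or abi4-102 replicate 2 (0.25). The number of arrays and the level of the control probe sets limit what dim members can show.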
